A study of Homo sapiens with 12 samples.

Results

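Ferritin and the proteins that bring iron into the cell, hand it on, sense it and let it out are described here through 9 genes, FTL, FTH1, TFRC, STEAP3, SLC11A2, SLC40A1, PCBP1, IREB2 and ACO1. They were chosen by name, as the rows of both expression tables that carry these symbols. All 9 were found among the 16760 genes of the 18E table and the 17442 genes of the siRNA table. The cells were HCC827 and NCI-H1975, established lines from human non-small cell lung cancers with activating mutations of EGFR, each line a single cultured model without the other cells of a tumour. One set of libraries came from cells given 18E, a small molecule known here only by its code name, at 2.5 µM or 5 µM for 24 h, or DMSO, its vehicle. The other set came from cells given siDYN-1 or siDYN-2 for 48 h, or the control siRNA siCON. Each treatment was sequenced as 1 library in each line, which makes 12 libraries. The 2 lines are therefore the replicates, and p-values measure only how far these libraries disagree.

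The values are FPKM (fragments per kilobase of transcript, with the library's size divided out). No read totals were given, so depth is unknown. The summed FPKM of a library ran from 486409 to 575290 in the 18E table and from 605451 to 685680 in the siRNA table. Between 534 and 2212 genes were listed at 0. From DMSO to 2.5 and 5 µM they were 1395, 1082 and 534 in HCC827, and 1077, 1051 and 898 in NCI-H1975. With siCON, siDYN-1 and siDYN-2 they were 2204, 2183 and 1570 in HCC827, and 2212, 2061 and 1519 in NCI-H1975. Whether depth differed between these libraries was not tested. The series title names LIC1, the protein of DYNC1LI1, whose level in siDYN-1 and siDYN-2 cells was 21.5% and 12.8% of siCON in NCI-H1975 and 14.9% and 7.49% in HCC827. All 7 epithelial markers were present in every library, at 7.14 FPKM or more. The other marker lists were read as far as the tables list them. The 3 leukocyte markers listed (of 5) stayed at or below 0.83 FPKM. Hepatocyte markers, 2 of 3 in the 18E table and 1 of 3 in the siRNA table, stayed at or below 0.34 FPKM. Of 5 erythroid markers 3 were listed in the siRNA table, at or below 0.18 FPKM, and 0 in the 18E table, where they were not analysed. Endothelial markers reached 1.47 FPKM (CDH5) and stromal ones 1.38 FPKM (COL1A1). Of 5 macrophage markers 4 were listed. MRC1 stayed at or below 0.04 FPKM and CD163 at or below 0.13 FPKM, while CD14 reached 10.7 FPKM in NCI-H1975. CSF1R, another macrophage marker, moved with 18E in the direction of ferritin: it had 5.88 FPKM under DMSO, 9.76 FPKM at 2.5 µM and 8.05 FPKM at 5 µM in NCI-H1975, and in HCC827 it had 0.16, 0.89 and 1.67 FPKM (0.80 ± 0.25 at 5 µM on the log2 scale, limma, unadjusted p = 0.0206, adjusted p = 0.135). In the same order CD14 had 6.17, 3.94 and 3.07 FPKM in NCI-H1975, while in HCC827 it had 1.13, 2.20 and 1.62 FPKM. Their part in the ferritin values was not tested.

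Cells take up iron bound to transferrin through the transferrin receptor, reduce it in the endosome and move it to the cytosol. Chaperones deliver what is not needed at once to ferritin, a hollow shell built of heavy chains, which oxidise iron, and light chains, which help to form the mineral core. Iron regulatory proteins bind a hairpin in target mRNAs, the iron-responsive element, when iron is scarce. Bound in a 5′ UTR, as in the ferritin mRNAs, they block translation; bound in the 3′ UTR of TFRC they protect the mRNA from decay. Ferritin genes are also transcribed more when the antioxidant factor NRF2 is active, and ferritin is degraded by autophagy through the receptor NCOA4.

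The hairpins show how these mRNAs can be read by the same pair of sensors, so they are printed from the GENCODE 29 transcripts (GRCh38), on the mRNA strand, 5′ to 3′, with the loop of 6 bases in capitals. The search asked for a C, then 5 bases, then CAGTGN, then 5 bases that pair with the first 5, on the transcript strand. FTL carried 1 match in its 5′ UTR at chr19:48965335-48965363, on the plus strand. SLC40A1 carried 1 in its 5′ UTR at chr2:189580661-189580689, on the minus strand. TFRC carried 4 in its 3′ UTR, on the minus strand, at chr3:196050979-196051007, chr3:196050575-196050603, chr3:196050510-196050538 and chr3:196050463-196050491, listed in the order in which the mRNA is read.
FTL: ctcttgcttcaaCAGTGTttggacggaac
SLC40A1: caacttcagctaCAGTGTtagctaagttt
TFRC site a: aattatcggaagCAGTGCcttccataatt
TFRC site b: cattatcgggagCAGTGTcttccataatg
TFRC site c: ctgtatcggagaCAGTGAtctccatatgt
TFRC site d: aattatcgggaaCAGTGTttcccataatt
Over all 19669 genes searched, 291 (1.48%) held such a match. FTH1 was not analysed for it here. None was found in SLC11A2, IREB2, ACO1, STEAP3 or PCBP1, which says only that these letters, with this pairing, are not there.

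Ferritin came first in level. Ordered by their median FPKM, a scale that allows for transcript length, the genes of the 18E table ran FTH1 (2975 FPKM), FTL (1695), PCBP1 (238), TFRC (132), ACO1 (23.3), STEAP3 (17.6), SLC11A2 (17.0), IREB2 (8.09) and SLC40A1 (0.655). FTH1 was above FTL in all 6 libraries although their ranges overlapped, and the ranges of FTL, PCBP1 and TFRC were apart from each other. ACO1, STEAP3 and SLC11A2 could not be ordered, since their ranges overlapped and their order changed between libraries. The siRNA table gave the same first 4 genes and the same last 2. FTH1 was the 12th most abundant gene with DMSO and the 2nd at both doses of 18E in NCI-H1975, and 28th with DMSO, 7th at 2.5 µM and 20th at 5 µM in HCC827.

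**Figure D1:**
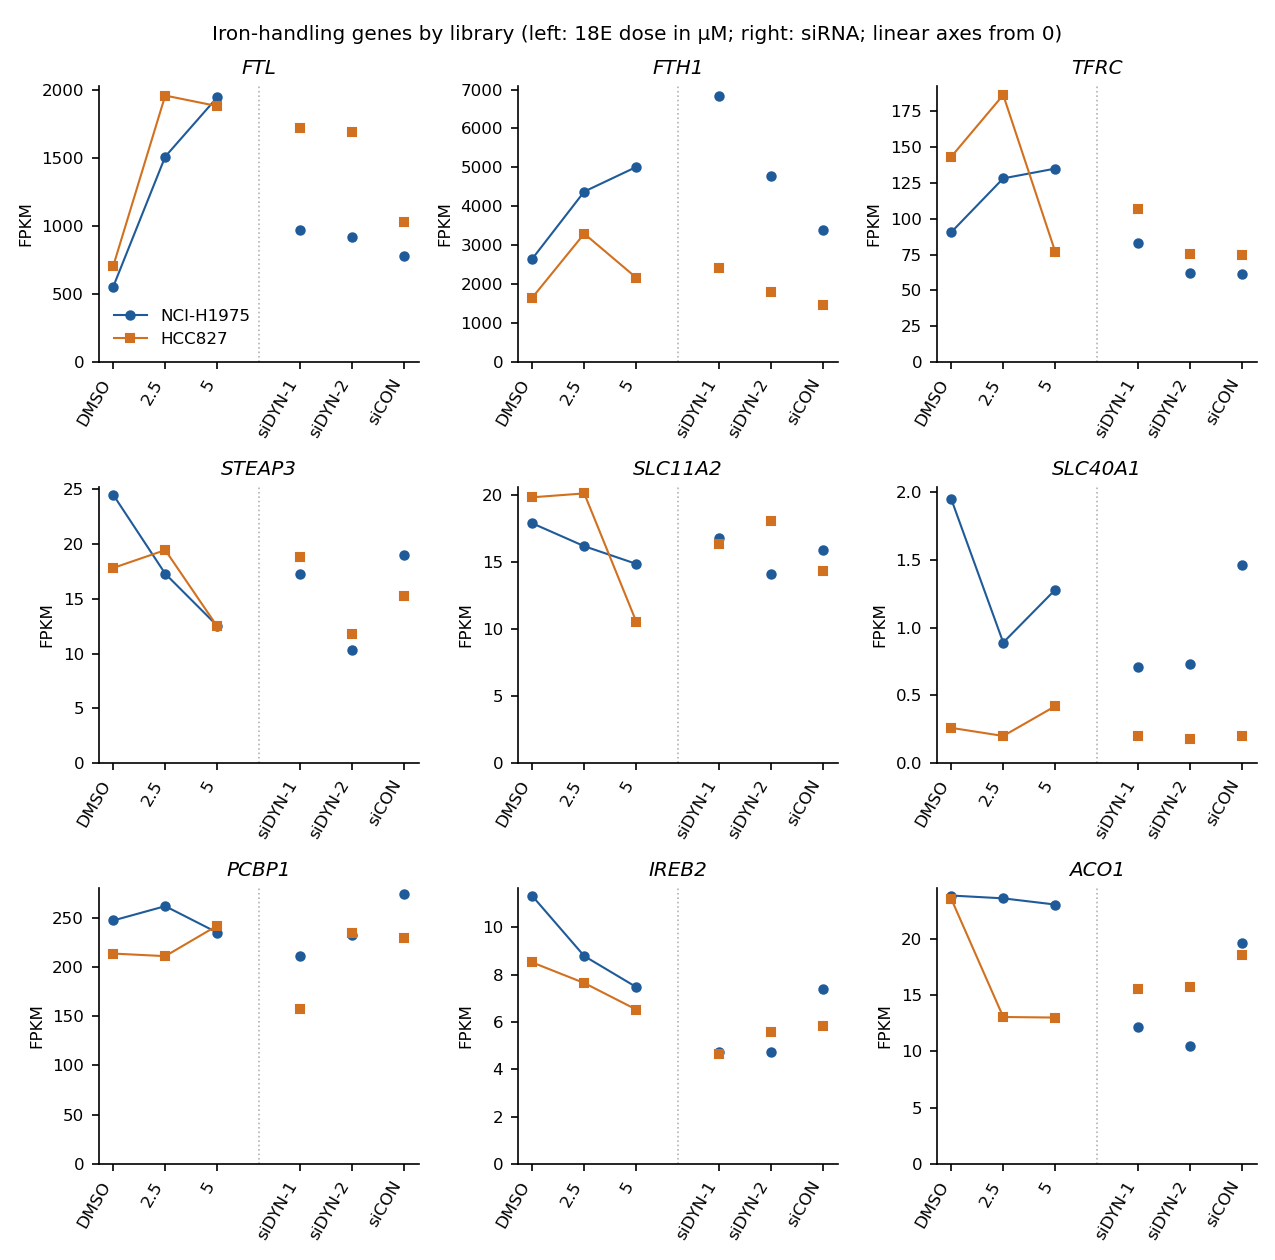
FPKM of the 9 genes in each library, on linear axes from 0; circles are NCI-H1975 and squares HCC827, with the 18E doses (µM) left of the dotted line and the siRNA experiment, normalized separately, right of it. FTL stood at 1509.8 to 1958 FPKM in the 4 libraries given 18E, against 554 and 706 FPKM with DMSO.

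FTL, which encodes the ferritin light chain, was the gene of the 9 that stood furthest from its control with 18E. It lies on chromosome 19 at 48965301 to 48966878, plus strand (GRCh38, GENCODE 29), with 4 exons. In NCI-H1975 it had 554 FPKM under DMSO, 1509.8 FPKM at 2.5 µM and 1945 FPKM at 5 µM. HCC827 had 706 FPKM under DMSO, 1958 FPKM at 2.5 µM and 1881 FPKM at 5 µM. All 4 libraries given 18E were above both DMSO libraries. The doses were fitted together with a shared estimate of the spread, so p-values at 2.5 µM also carry disagreement of the lines at 5 µM. The fitted log2 change, on the log2(FPKM + 1) scale used for every change here, was 1.61 ± 0.15 (SE, n = 2 lines) at 5 µM (limma, adjusted p = 0.0845, not called) and 1.46 ± 0.15 at 2.5 µM (adjusted p = 0.534). It was at least 1, which is 2-fold, in both lines at both doses. Only 1.07% of all tested genes reached that at 5 µM and 0.251% at 2.5 µM. Counted from the largest increase among 11953 tested genes, FTL in NCI-H1975 took place 27 at 2.5 µM and 44 at 5 µM, and in HCC827 place 44 at 2.5 µM and 459 at 5 µM. The later place at the same size of change went with a wider spread in that library, where 14.6% of tested genes differed at least 2-fold from DMSO, against 0.929% to 2.91% in the other 3. In bulk RNA, a higher level per cell and more cells with a high level cannot be told apart.

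The call for FTL at 5 µM turned on the settings. It passed with a pseudocount of 0.1 (1.61, limma, adjusted p = 0.0466). The 6 fits that left out 1 library gave 1.41 to 1.82. Each of them had a group with 1 library, which adds nothing to the measured disagreement between the lines, so their calls are left out here. Without either library at 2.5 µM, both DMSO and both 5 µM libraries stayed in, and the change was still 1.61. The adjusted p of FTL over the alternatives that kept all libraries ran from 0.0466 to 0.9997, the last without the line term. From 2.5 to 5 µM its change was 0.15 ± 0.15 (95% interval -0.21 to 0.52, adjusted p = 0.610).

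FTH1, which encodes the ferritin heavy chain that oxidises iron, was higher with 18E in both lines but by less. It lies on chromosome 11 at 61959718 to 61967660, minus strand, and BEST1 overlaps it on the other strand. In NCI-H1975 it had 2651 FPKM under DMSO, 4379 FPKM at 2.5 µM and 5011 FPKM at 5 µM. In HCC827 it had 1654 FPKM under DMSO, 3298 FPKM at 2.5 µM and 2167 FPKM at 5 µM. The dose series therefore climbed in NCI-H1975 and peaked at 2.5 µM in HCC827, and the HCC827 library at 5 µM lay below the NCI-H1975 library with DMSO. The log2 change was 0.65 ± 0.20 at 5 µM (limma, adjusted p = 0.130) and 0.86 ± 0.20 at 2.5 µM (adjusted p = 0.915), and neither was called. From 2.5 to 5 µM it was -0.21 ± 0.20 (95% interval -0.70 to 0.29). Without the HCC827 library at 5 µM the change at 5 µM was 0.99, and without the NCI-H1975 library at 5 µM it was 0.32. The annotation holds 25 pseudogenes named after FTH1 and 16 named after FTL, so reads of either gene could have been shared with near copies, and how they were counted is not given in the sources used here.

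Together the chains made up a larger share of all FPKM with 18E, and there was less heavy chain mRNA per light chain mRNA. FTL plus FTH1 made up 0.613% of the summed FPKM in NCI-H1975 under DMSO, 1.07% at 2.5 µM and 1.21% at 5 µM. The same shares were 0.485%, 1.05% and 0.787% in HCC827. The ratio of FTH1 to FTL was 4.79 under DMSO, 2.90 at 2.5 µM and then 2.58 at 5 µM in NCI-H1975. In HCC827 it was 2.34, 1.68 and 1.15. Both lines thus had a lower ratio at each higher dose; no test was made of the ratio.

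**Figure D2:**
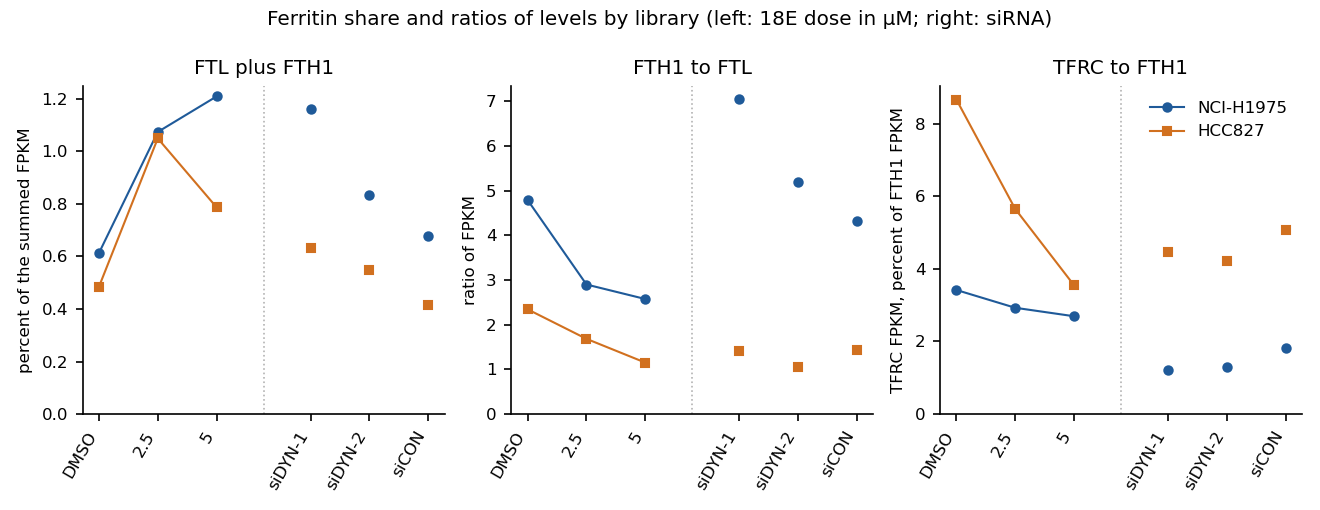
FTL plus FTH1 as a percent of the summed FPKM (left), the ratio of FTH1 to FTL FPKM (middle) and TFRC as a percent of FTH1 FPKM (right), by library; circles are NCI-H1975 and squares HCC827, dose in µM left of the dotted line. The FTH1 to FTL ratio at 5 µM was 2.58 in NCI-H1975 and 1.15 in HCC827, against 4.79 and 2.34 with DMSO.

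TFRC, the transferrin receptor that brings iron in, went opposite ways in the lines at the higher dose. The gene spans chromosome 3 from 196027183 to 196082189, minus strand, with up to 19 exons. In NCI-H1975 it had 90.6 FPKM under DMSO, 128 FPKM at 2.5 µM and 135 FPKM at 5 µM. HCC827 had 143 FPKM under DMSO, 186 FPKM at 2.5 µM and 76.95 FPKM at 5 µM. Both lines were higher than DMSO at 2.5 µM, while at 5 µM the log2 change was 0.57 in NCI-H1975 and -0.89 in HCC827. The fitted change was -0.16 ± 0.37 at 5 µM (limma, adjusted p = 0.796) and 0.44 ± 0.37 at 2.5 µM (adjusted p = 0.924). The difference between lines over both doses was 0.79 ± 0.72 (adjusted p = 0.9994). In NCI-H1975 the TFRC level was 3.42% of that of FTH1 under DMSO, 2.93% at 2.5 µM and 2.69% at 5 µM. In the same order it was 8.66%, 5.65% and 3.55% in HCC827.

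STEAP3, the ferrireductase of the transferrin endosome, was lower at 5 µM in both lines. It had 24.5 FPKM under DMSO, 17.3 FPKM at 2.5 µM and 12.5 FPKM at 5 µM in NCI-H1975, and in HCC827 it had 17.8, 19.45 and 12.5 FPKM. Both libraries at 5 µM were below both DMSO libraries, while at 2.5 µM the lines went opposite ways. The log2 change was -0.70 ± 0.20 at 5 µM (limma, adjusted p = 0.122) and -0.18 ± 0.20 at 2.5 µM, and from 2.5 to 5 µM it was -0.52 ± 0.20 (adjusted p = 0.411). STEAP3-AS1 overlaps the gene on the other strand, and the use of strand is not given in the sources used here.

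SLC11A2, or DMT1, moves ferrous iron out of the endosome. It had 17.9 FPKM under DMSO, 16.2 FPKM at 2.5 µM and 14.9 FPKM at 5 µM in NCI-H1975, and in HCC827 it had 19.8, 20.1 and 10.6 FPKM. Both libraries at 5 µM were below both DMSO libraries, by more in HCC827. The log2 change at 5 µM was -0.55 ± 0.23 (limma, adjusted p = 0.191). Without the NCI-H1975 library at 5 µM it was -0.89, and without the HCC827 library at 5 µM it was -0.21. The TFRC change at 5 µM was -0.86 without that NCI-H1975 library and 0.54 without that HCC827 library.

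SLC40A1 encodes ferroportin, the iron exporter, and was barely expressed. It had 1.95 FPKM under DMSO, 0.89 FPKM at 2.5 µM and 1.28 FPKM at 5 µM in NCI-H1975, and in HCC827 it had 0.26, 0.20 and 0.42 FPKM. It entered the 18E test only through 2 NCI-H1975 libraries, those with DMSO and 5 µM, that reached 1 FPKM. The log2 change was -0.10 ± 0.22 at 5 µM and -0.36 ± 0.22 at 2.5 µM (limma, adjusted p = 0.787 and 0.922).

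PCBP1 encodes a chaperone that delivers iron to ferritin. It had 247 FPKM under DMSO, 262 FPKM at 2.5 µM and 235 FPKM at 5 µM in NCI-H1975, and in HCC827 it had 214, 211 and 242 FPKM. The libraries overlapped at every dose, and the log2 change was 0.05 ± 0.15 at 5 µM (95% interval -0.31 to 0.42), negative (-0.06 and -0.10) when FPKM were scaled to equal totals or quantile normalized.

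Of the sensors, IREB2 had lower values with 18E in both lines and ACO1 in HCC827, and neither was called. IREB2 encodes IRP2, an RNA-binding protein that is degraded when iron is plentiful. It had 11.3 FPKM under DMSO, 8.79 FPKM at 2.5 µM and 7.48 FPKM at 5 µM in NCI-H1975, and in HCC827 it had 8.52, 7.65 and 6.53 FPKM, a lower value at each higher dose in both lines. Its log2 change was -0.44 ± 0.17 at 5 µM (limma, adjusted p = 0.171) and -0.24 ± 0.17 at 2.5 µM. ACO1 encodes IRP1, which serves as the cytosolic aconitase when it holds an iron-sulfur cluster. It had 23.8 FPKM under DMSO, 23.6 FPKM at 2.5 µM and 23.0 FPKM at 5 µM in NCI-H1975. HCC827 had 23.5 FPKM with DMSO, 13.04 at the lower dose and 12.99 at the higher. NCI-H1975 stayed within -0.015 (2.5 µM) and -0.047 (5 µM) of its control on the log2 scale. The lines were level with DMSO, and the HCC827 libraries at both doses lay below all the others. The log2 change was -0.43 ± 0.24 at 5 µM and -0.41 ± 0.24 at 2.5 µM (limma, adjusted p = 0.295 and 0.922), and the difference between lines was 0.78 ± 0.32 (unadjusted p = 0.0587, adjusted p = 0.9994).

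**Figure D3:**
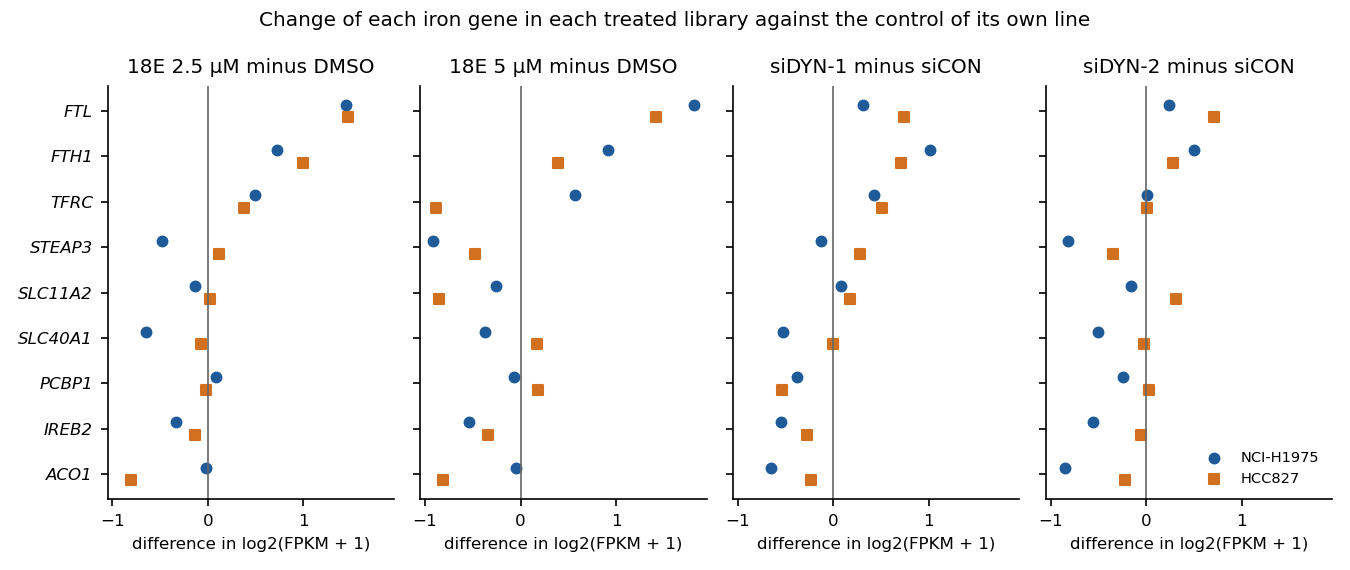
Difference in log2(FPKM + 1) between each treated library and the control of its own line for the 9 genes, with circles for NCI-H1975 and squares for HCC827. With 18E at 5 µM, FTL stood at 1.81 in NCI-H1975 and 1.41 in HCC827, while TFRC stood at 0.57 and -0.89.

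Read against all 11953 genes tested, few of the 9 stood out. At 5 µM none was called at an adjusted p under 0.05 (limma), where 1 gene was called in all (0.00837%). At an unadjusted p under 0.05 there were 4 of 9 (FTL and FTH1 higher, IREB2 and STEAP3 lower), against 26.8% of all genes. FTL and FTH1 were higher in both lines, as were 25.5% of all genes, and SLC11A2, IREB2, ACO1 and STEAP3 were lower in both, as were 40.8%. In NCI-H1975 ACO1 was nearly level with its control (log2 change -0.047). FTL alone had both 5 µM libraries above both DMSO libraries (11.2% of all genes did), and the same 4 genes had both below (18.2%). The median log2 change was -0.16 over the 9 genes and -0.09 over all genes.

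At 2.5 µM none was called, as was no gene at all (0.0%). FTL and FTH1 had an unadjusted p under 0.05, against 5.26% of all genes. FTL, FTH1 and TFRC were higher in both lines (32.2% of all genes), and SLC40A1, IREB2 and ACO1 lower in both (31.6%). SLC40A1 in HCC827 was near the floor (0.20 FPKM against 0.26), and ACO1 in NCI-H1975 was nearly level with its control (log2 change -0.015). FTL and FTH1 had both libraries above both DMSO libraries (8.15% of all genes), and none of the 9 had both below (7.45%). The median log2 change was -0.06 over the 9 genes and 0.00016 over all genes. The doses share their DMSO libraries and their estimate of the spread, which takes in the widely spread HCC827 library at 5 µM. Between the doses 0 genes were called (0.0%), and STEAP3, lower at 5 µM, was the 1 member with an unadjusted p under 0.05, against 11.8% of all genes. For the difference between lines in the response to 18E, 0 genes were called (0.0%) and 0 members had an unadjusted p under 0.05, against 1.72% of all genes.

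**Figure D4:**
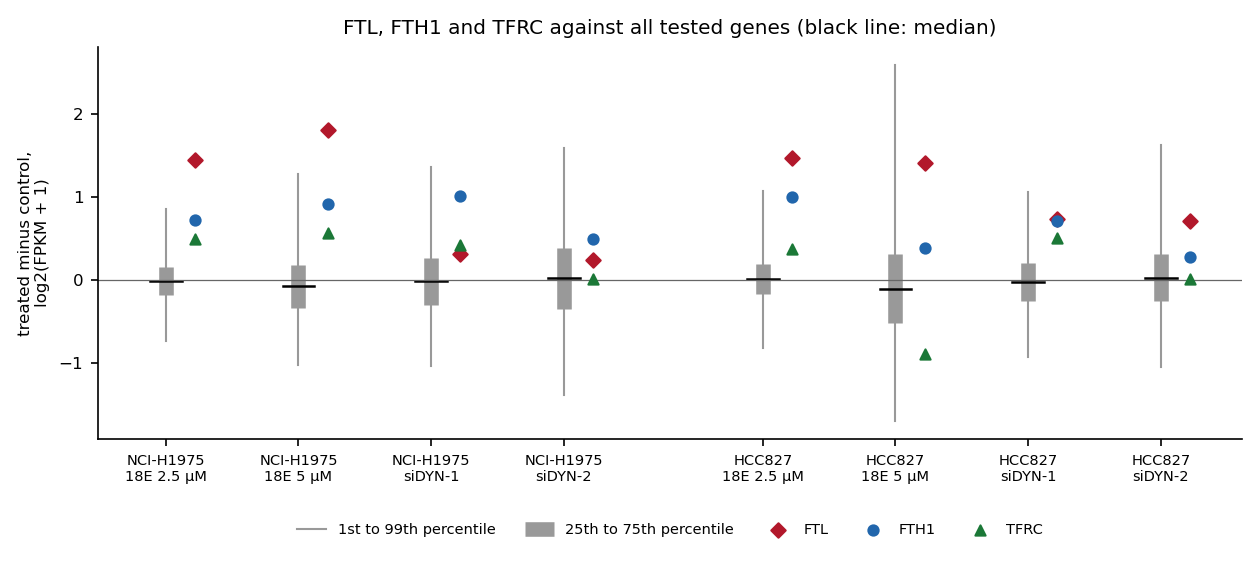
Change of FTL (diamonds), FTH1 (circles) and TFRC (triangles) in log2(FPKM + 1) against the control of the same line, beside the spread of all tested genes in that library (thin line from the 1st to the 99th percentile, thick bar from the 25th to the 75th, black line the median). FTL lay above the 99th percentile in both lines at 2.5 µM and in NCI-H1975 at 5 µM, but inside the wider spread of HCC827 at 5 µM.

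The same genes were read in cells given siDYN-1 or siDYN-2, in which DYNC1LI1 was low. Both ferritin chains had higher values with each siRNA in each line and both sensors lower ones, and none of the 4 genes was called. FTH1 had 6824 FPKM with siDYN-1 and 4785 with siDYN-2 in NCI-H1975, against 3383 with siCON. HCC827 had 2408 FPKM with siDYN-1 and 1789 with siDYN-2, against 1475 with siCON. The line set the level more than the siRNA did, and siDYN-1 gave the higher value in both lines. The log2 change over both siRNAs was 0.62 ± 0.19 (SE, 4 treated and 2 control libraries; limma, adjusted p = 0.121). In a fit of all 6 libraries with the siRNAs apart, siDYN-1 against siCON gave 0.86 and passed (limma, adjusted p = 0.0468). In that contrast 82 of 11718 genes passed. For siDYN-2 against siCON the change was 0.39 and did not pass, while 2124 genes did.

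FTL had 969 FPKM with siDYN-1 and 921 with siDYN-2 in NCI-H1975, against 781 with siCON. In HCC827 it had 1719 FPKM with siDYN-1 and 1689 with siDYN-2, against 1032 with siCON. The siRNAs gave close values within each line, and the increase was larger in HCC827. The log2 change was 0.50 ± 0.14 (limma, adjusted p = 0.108), and the difference between lines was -0.45 ± 0.27 (unadjusted p = 0.147, adjusted p = 0.9999). The FTH1 to FTL ratio was 7.04 and 5.19 with siDYN-1 and siDYN-2 in NCI-H1975, against 4.33 with siCON, and 1.40 and 1.06 in HCC827, against 1.43. With 18E the ratio was lower than its control in all 4 treated libraries, while with siDYN it was higher in NCI-H1975. The chains together held 1.16% and 0.832% of the summed FPKM with siDYN-1 and siDYN-2 in NCI-H1975, against 0.678% with siCON, and 0.631% and 0.549% in HCC827, against 0.414%.

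TFRC differed with the siRNA used. It had 83.1 FPKM with siDYN-1 and 62.0 with siDYN-2 in NCI-H1975, against 61.5 with siCON, and 107 and 75.3 FPKM in HCC827, against 74.9. siDYN-1 stood apart from siCON in both lines and siDYN-2 did not. The log2 change was 0.24 ± 0.19 (limma, adjusted p = 0.452).

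STEAP3 split by siRNA too. It had 17.3 FPKM with siDYN-1 and 10.3 with siDYN-2 in NCI-H1975, against 19.0 with siCON, and 18.8 and 11.8 FPKM in HCC827, against 15.3. Only siDYN-2 was lower in both lines. Its log2 change was -0.25 ± 0.27 over both siRNAs and 0.08 with siDYN-1 alone. SLC11A2 had 16.8 and 14.1 FPKM with siDYN-1 and siDYN-2 in NCI-H1975, against 15.9, and 16.3 and 18.1 FPKM in HCC827, against 14.3 (0.10 ± 0.15; -0.0055 with equal totals). PCBP1 had 211 and 233 FPKM in NCI-H1975, against 274, and 158 and 234 FPKM in HCC827, against 229 (-0.28 ± 0.18). SLC40A1 had 0.71 and 0.73 FPKM in NCI-H1975, against 1.46, and 0.20 and 0.18 FPKM in HCC827, against 0.20, and was too low to be tested.

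ACO1 had 12.1 and 10.45 FPKM with siDYN-1 and siDYN-2 in NCI-H1975, against 19.6 with siCON. HCC827 had 15.6 and 15.7 FPKM, against 18.5. All 4 treated libraries were below both siCON libraries (log2 change -0.49 ± 0.17, limma adjusted p = 0.142). NCI-H1975 had the larger decrease here and the smaller one with 18E, and neither difference between lines passed (siDYN -0.52 ± 0.31, adjusted p = 0.9999). IREB2 had 4.74 and 4.73 FPKM in NCI-H1975, against 7.39, and 4.64 and 5.58 FPKM in HCC827, against 5.83. Its libraries too were all below both siCON libraries (-0.36 ± 0.16, adjusted p = 0.214).

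Of the 8 members tested with siDYN none was called, as was no gene of 11718 (0.0%, limma). FTL, FTH1 (higher) and ACO1 (lower) had an unadjusted p under 0.05, 3 of 8, against 26.0% of all genes. FTL, FTH1 and TFRC were higher in all 4 treated libraries (24.9% of all genes) and IREB2 and ACO1 lower in all 4 (25.6%). No member had all 4 above both siCON libraries (7.96% of all genes), and IREB2 and ACO1 had all 4 below (10.8%). The median log2 change was -0.07 over the 8 genes and 0.0088 over all genes. For the difference between lines in the response to siDYN, 0 genes were called (0.0%) and 0 members had an unadjusted p under 0.05, against 1.52% of all genes.

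The lines differed in FTH1. Here the 3 libraries of a line, each treated differently, stand in for its replicates. The p-values therefore do not measure how a line varies from culture to culture. Over the 3 libraries of each line, with treatment in the fit, FTH1 was higher in NCI-H1975 than in HCC827 by 0.77 ± 0.16 in the 18E table (limma, adjusted p = 0.0115) and by 1.37 ± 0.10 in the siRNA table (adjusted p = 0.000131). FTL went the other way in the siRNA table, by -0.70 ± 0.12 (adjusted p = 0.0034). In the 18E table its difference was -0.23 ± 0.12 and was not called (adjusted p = 0.168), and at 5 µM FTL was higher in NCI-H1975. TFRC was lower in NCI-H1975 in the siRNA table (-0.31 ± 0.09, limma adjusted p = 0.0320). That call was lost without either siCON library or either siDYN-1 library (-0.32 to -0.28). SLC40A1 entered the 18E test only through NCI-H1975, so its difference between lines is given by its levels alone, above. Besides it, FTH1 was the 1 member called in the 18E table, where 52.0% of all genes were, and 3 of 8 were called in the siRNA table, against 57.0% of all genes. Equal FPKM totals moved the median of all genes in the 18E table by -0.12, and FTL then passed there (-0.36, limma adjusted p = 0.041). Quantile normalization moved that median by -0.055, and FTL passed then too (-0.50, limma adjusted p = 0.0123).

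Other genes of iron handling were read from 10 lists, which overlap and include the members. None of their genes was called in any of the 3 comparisons with a control (limma). Their counts below are to be read against all tested genes, of which 25.5% were higher and 40.8% lower in both lines at 5 µM, 32.2% and 31.6% at 2.5 µM, and 24.9% and 25.6% in all 4 siDYN libraries. The medians of all tested genes were -0.09, 0.00016 and 0.0088 in the same order. No list was tested as a set. Heme and redox genes had the largest changes in these lists. HMOX1, heme oxygenase, which frees iron from heme, had 98.3 FPKM under DMSO, 245 FPKM at 2.5 µM and 503 FPKM at 5 µM in NCI-H1975, and in HCC827 it had 2.77, 46.9 and 62.0 FPKM. Its log2 change was 3.20 ± 0.53 at 5 µM (adjusted p = 0.101). With siDYN-1 and siDYN-2 it had 560 and 764 FPKM in NCI-H1975, against 166 with siCON, and 10.5 and 20.01 FPKM in HCC827, against 10.2 (1.22 ± 0.39, adjusted p = 0.124). HMOX1 was thus higher than its control in all 8 treated libraries, as FTL and FTH1 were, but with siDYN-1 in HCC827 it was nearly level.

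BLVRB, a biliverdin reductase that acts after heme oxygenase, had 42.3 FPKM under DMSO, 99.5 FPKM at 2.5 µM and 124 FPKM at 5 µM in NCI-H1975, and in HCC827 it had 45.9, 101 and 89.7 FPKM (1.24 ± 0.19 at 5 µM, adjusted p = 0.101). ALAS1, which starts heme synthesis, had a log2 change of 0.75 ± 0.21 at 5 µM. Of the 16 genes of heme synthesis and breakdown 5 were higher and 6 lower in both lines at 5 µM, 6 and 3 at 2.5 µM, and with siDYN 5 were higher and 3 lower in all 4 libraries. Their median log2 change was -0.11, 0.03 and 0.12. With siDYN, HMOX2, the constitutive heme oxygenase, had 0.62 ± 0.13 (adjusted p = 0.0973) and CPOX, of heme synthesis, -0.62 ± 0.20.

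Among 13 tested NRF2 targets, which include FTL and FTH1, 8 were higher and 1 lower in both lines at 5 µM, 10 and 1 at 2.5 µM, and 6 and 1 in all 4 siDYN libraries, with medians of 0.63, 0.33 and 0.22, against -0.09, 0.00016 and 0.0088 over all genes. OSGIN1, an oxidative stress response gene, had a log2 change of 2.63 ± 0.44 at 5 µM and SLC7A11, the cystine transporter, 1.45 ± 0.26 (adjusted p = 0.101 each). The list was not uniform. AKR1B10, an aldo-keto reductase, had -1.11 ± 0.20 at 2.5 µM and TXNRD1, thioredoxin reductase, -0.85 ± 0.21 with siDYN. The 12 ferroptosis regulators had 7 higher and 2 lower at 5 µM, 8 and 1 at 2.5 µM, and 7 and 1 with siDYN (medians 0.37, 0.36 and 0.24). CHAC1, which breaks down glutathione, had 1.76 ± 0.27 at 5 µM, 1.99 ± 0.27 at 2.5 µM and 1.39 ± 0.40 with siDYN. ACSL4, which supplies the lipids that are oxidised in ferroptosis, had -0.63 ± 0.16 with siDYN (adjusted p = 0.104).

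**Figure D5:**
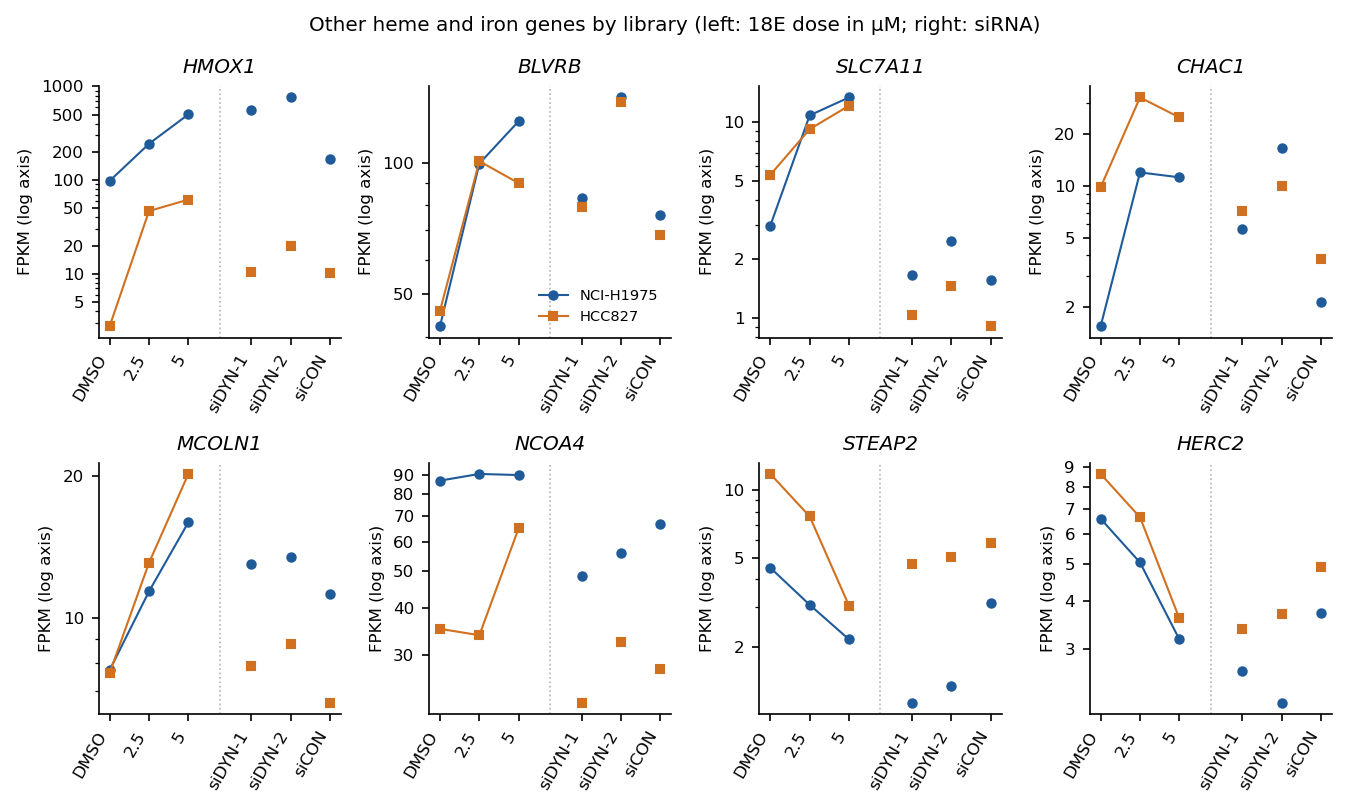
FPKM, on log axes, of 8 non-member genes of heme, redox and iron handling by library; circles are NCI-H1975 and squares HCC827, with the 18E dose in µM left of the dotted line and the siRNA experiment right of it. HMOX1 had 503 FPKM at 5 µM in NCI-H1975 and 62.0 in HCC827, against 98.3 and 2.77 with DMSO.

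Of the 5 tested genes of storage and delivery to ferritin, 3 were higher and 0 lower in both lines at 5 µM, 2 and 0 at 2.5 µM, and 2 and 0 with siDYN (medians 0.46, 0.03 and -0.07). NCOA4, the receptor that carries ferritin into autophagy, had 87.1 FPKM under DMSO, 90.7 FPKM at 2.5 µM and 90.1 FPKM at 5 µM in NCI-H1975, and in HCC827 it had 35.2, 33.9 and 65.2 FPKM. Only the HCC827 library at 5 µM stood apart (0.46 ± 0.26, adjusted p = 0.291).

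The 10 tested genes of uptake and reduction were divided, with 3 higher and 3 lower in both lines at 5 µM, 5 and 1 at 2.5 µM, and 3 and 1 with siDYN (medians -0.13, 0.10 and 0.17). MCOLN1, a lysosomal channel that releases iron and calcium, had 7.74 FPKM under DMSO, 11.4 FPKM at 2.5 µM and 15.9 FPKM at 5 µM in NCI-H1975, and in HCC827 it had 7.63, 13.1 and 20.2 FPKM (1.13 ± 0.17 at 5 µM, adjusted p = 0.101). STEAP2, a reductase related to STEAP3, had -1.23 ± 0.25 at 5 µM (adjusted p = 0.104) and -0.55 ± 0.19 with siDYN. TFR2, the second transferrin receptor, had 0.73 ± 0.29 with siDYN (adjusted p = 0.182). Of the export genes only SLC40A1 and CP, a ferroxidase, were tested with 18E: 0 were higher in both lines at either dose, 1 was lower in both at 5 µM and 2 at 2.5 µM (medians -0.72 and -0.59), and with siDYN CP alone was tested (-0.13 ± 0.22). In HCC827 SLC40A1 was near the floor, at 0.20 FPKM with 2.5 µM against 0.26 FPKM with DMSO.

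All 4 sensing genes had lower values in both lines at 5 µM, as did 40.8% of all genes, and at 2.5 µM, as did 31.6%. With siDYN 3 of them were lower in all 4 libraries, as were 25.6% of all genes (medians -0.43, -0.28 and -0.39). The count takes in ACO1, which in NCI-H1975 with 18E was nearly level with its control. HERC2, a ubiquitin ligase that acts on the IRP2 adaptor FBXL5, had 6.59 FPKM under DMSO, 5.06 FPKM at 2.5 µM and 3.18 FPKM at 5 µM in NCI-H1975, and in HCC827 it had 8.64, 6.65 and 3.61 FPKM (-0.96 ± 0.17 at 5 µM, adjusted p = 0.101). FBXL5 had -0.32 ± 0.16 at 5 µM and 0.21 ± 0.22 with siDYN. The 9 tested mRNAs with a known iron-responsive element, 5 of them members, had 2 higher and 3 lower at 5 µM, and 3 and 2 at 2.5 µM (medians -0.10 and 0.09). With siDYN 4 of the 7 tested were higher and 1 lower (median 0.24).

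Iron-sulfur genes had small median changes. Of 18 mitochondrial ones 7 were higher and 5 lower at 5 µM and 8 and 4 at 2.5 µM, and of 17 with siDYN 7 were higher and 1 lower (medians -0.02, 0.03 and 0.12). Of 10 cytosolic ones 4 were higher and 2 lower at 5 µM, 8 and 1 at 2.5 µM, and 6 and 1 with siDYN (medians 0.08, 0.17 and 0.17). MMS19, which hands clusters to DNA enzymes, had -0.80 ± 0.19 at 5 µM (adjusted p = 0.104), and SLC25A28, a mitochondrial iron importer, 0.84 ± 0.29 with siDYN.

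The genes most like the members in their 8 changes were found by the root mean square difference of log2 changes over the 8 treated libraries, among 11448 genes tested in both tables. Nearest to FTL was CTH, cystathionine gamma-lyase, at 0.23, followed by GDF15 (0.34), CGB8 (0.37), BLVRB (0.40) and SLC7A11 (0.42). CGB8 has near-identical copies, so its reads are uncertain. CTH had changes of 1.45 and 1.72 at 2.5 and 5 µM in NCI-H1975 and of 1.62 and 1.77 in HCC827. Among the nearest to FTH1 were SPSB2 (0.19), ABHD14A (0.19), CBLC (0.23) and PRR5 (0.23), and among the nearest to TFRC were ANTKMT (0.20), PSPH (0.22), SYNGR2 (0.23) and GPT2 (0.23). The libraries of a line share their control, so these distances are a description.

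In the 250 bases before the gene start (RefSeq, GRCh38.p14), available for 8 of the 9 genes, TGACNNNGC, the core of the antioxidant response element, was found on either strand in PCBP1 only, against 11.0% of 27305 promoters. ACGTG, the core of the hypoxia response element, was found in FTL and TFRC, against 18.7%. TGATGNAA, the amino acid response motif, was found in none, against 3.19%. Such matches describe letters in a short window and say nothing of binding there.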

How the data were processed

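Per the labels' protocols, Trizol was used to extract RNA and an Illumina TruSeq kit to build libraries. Each experiment has 1 table, in which the authors deposited FPKM, per the file headers. Bowtie 0.12.2 and the builds mm8, which is a mouse build, and GRCh38.p12 are named without a role per the submitters' processing notes; which tool counted, on which annotation and whether by strand is not given in the sources used here. Of 16800 and 17462 lines, 16760 (18E) and 17442 (siRNA) complete genes were used, and 16426 are in both tables. All columns of per-sample values were matched to samples by name.

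Values were transformed to log2(FPKM + 1), so folds of low genes are understated. Genes with at least 1 FPKM in 2 of 6 libraries were tested (11953 and 11718) with limma 3.58.1 in R 4.3.3, with a variance trend, the cell line as a block, two-sided, and Benjamini-Hochberg adjusted p under 0.05 over all tested genes. The block rests on the labels, which give the line of each sample. Residual degrees of freedom were 2 (18E, line differences) and 3 (siDYN, both siRNAs pooled). In the difference between lines, doses or siRNAs stand in for replicates. The fit was tested on simulated data in which noise was independent and equally large for every gene and library. The spread of changes differed between the real libraries, so that test does not show how reliable the calls are. The tables were normalized separately, so levels were compared within a table only.

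The members and lists were chosen with earlier results of these data known. Besides the members, the text names, from up to 3 genes per list and comparison with the largest fitted change, those of clearest role, and genes among the 5 nearest in change to FTL, FTH1 and TFRC; a few genes that these rules pick are not reported here. Alternatives were a pseudocount of 0.1, no filter, equal FPKM totals, quantile normalization, no variance trend, no line term, single siRNAs and each library left out. Hairpin and gene positions are from GENCODE 29 on GRCh38 and promoters from RefSeq on GRCh38.p14. Tables were handled with pandas in Python.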

Additional observations from a re-analysis of the deposited data

Results flagged for a closer look

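With 18E, 3 of the 9 genes went opposite ways in the lines at 5 µM, as did 32.9% of all tested genes, and 3 at 2.5 µM, as did 34.9%; PCBP1 did so at both doses. That is 1 library against 1, so the difference at a single dose was not tested. At 5 µM the log2 change of TFRC in NCI-H1975 minus that in HCC827 was 1.46. For SLC40A1 it was -0.54, at levels under 2 FPKM, and for PCBP1 it was -0.25. At 2.5 µM the difference was -0.60 for STEAP3, -0.16 for SLC11A2 and 0.10 for PCBP1. The test over both doses called none of these genes.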

How the results depend on the processing

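With 1 library per line and treatment, depth unknown and few residual degrees of freedom, calls moved with the settings more than values did; the cause was not tested. With all libraries kept, 374 member values kept their direction and side of the threshold, 17 changed sign, 4 passed only then and 1 passed no longer. A pseudocount of 0.1 called 1 member at 5 µM (FTL) and 16 genes in all, against 0 genes with no filter, equal totals, quantile normalization, no variance trend or no line term. For siDYN, a single siRNA was set against siCON in a fit that kept all libraries. That called 1 member (FTH1) and 82 genes of 11718 for siDYN-1, and 0 members and 2124 genes for siDYN-2. Between lines in the 18E table, no filter called 1 member, SLC40A1, and FTH1 no longer passed (adjusted p = 0.0541).

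Values that changed sign were small. With equal totals they were -0.056, -0.023 and -0.033 for PCBP1 (5 µM, 2.5 µM and between doses), -0.0055 for SLC11A2 with siDYN and, between lines, -0.12 for SLC11A2 and -0.029 for STEAP3 (18E table) and -0.0065 for IREB2 and -0.051 for STEAP3 (siRNA table). With quantile normalization they were -0.10, -0.050 and -0.053 for PCBP1, 0.053 for ACO1 between doses and, between lines, -0.047 for SLC11A2 and -0.059 for PCBP1 (18E table) and -0.053 for IREB2 and -0.056 for STEAP3 (siRNA table). STEAP3 had 0.079 with siDYN-1 alone. Taking out the replicate block (the line term) changed no call of a member: 0 were called in each of the 4 comparisons it applies to, and adjusted p rose to 0.9997 for FTL at 5 µM and 0.789 with siDYN.

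Leaving out 1 library, where a lone sample is assumed to vary like the rest, called 1 to 3 members at 5 µM, 0 to 2 at 2.5 µM, 0 to 3 between doses, 0 with siDYN and 2 to 4 between lines in either table (SLC40A1 counted in the 18E table). All-gene counts ran from 34 to 4520 at 5 µM, 0 to 26 at 2.5 µM, 0 to 3478 between doses (both highest counts for 5 µM without its NCI-H1975 library), 0 to 128 with siDYN, and 3573 to 7420 and 5198 to 6469 between lines in the 18E and siRNA tables. The highest member counts at 5 µM and between doses also came from the fit without the NCI-H1975 library at 5 µM. Since that fit had the highest all-gene counts there, these member counts do not set the members apart from all tested genes. Where a fit leaves a group with 1 library, its counts are not read as calls. Ranges that crossed 0 were as follows. At 5 µM they were TFRC -0.86 to 0.54, SLC40A1 -0.38 to 0.18 and PCBP1 -0.098 to 0.20, and at 2.5 µM SLC11A2 -0.29 to 0.17, STEAP3 -0.44 to 0.078 and PCBP1 -0.081 to 0.15. Between doses they were FTL -0.052 to 0.36, FTH1 -0.54 to 0.13, TFRC -1.29 to 0.10, ACO1 -0.22 to 0.19 and PCBP1 -0.13 to 0.17, and with siDYN SLC11A2 -0.04 to 0.25. For the line difference in response they were FTH1 -0.17 to 0.43, SLC11A2 -0.21 to 0.66 and PCBP1 -0.17 to 0.022 (18E), and TFRC -0.29 to 0.21 and PCBP1 -0.34 to 0.23 (siDYN). Between lines they were TFRC -0.60 to 0.13, SLC11A2 -0.22 to 0.16 and STEAP3 -0.077 to 0.22 (18E table), and SLC11A2 -0.15 to 0.089, IREB2 -0.087 to 0.16 and STEAP3 -0.14 to 0.091 (siRNA table). The line difference in response could not be fitted without a control library.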
